A study of Homo sapiens with 38 samples.

Results

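The genes of the MYC and MAX network were followed in HCT116 cells, a human colorectal carcinoma line, after silencing of VPS4A, VPS4B or both. These paralogs encode the ATPases that disassemble ESCRT-III filaments on membranes. The 8 genes MYC, MAX, MXI1, MXD4, MXD3, MNT, MLX and MGA were chosen by family, as MYC and its MAX or MLX partners, and by being listed among the 12627 genes of the deposited table. Detection was the only measured value in that rule. MXD3, the member with the fewest reads, had 3953 reads over the 37 libraries used and MYC had 114051, and the relative MYCN was not analysed here. The genes were put forward with earlier results of these data in view, so their tests describe these libraries and give no independent support to any pattern.

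Cells were non-transfected (NT) or collected 72 h after transfection with small interfering RNA (siRNA) duplexes. The control siCTRL#1, a non-targeting duplex, was given at 60 nM, and a second non-targeting duplex was siCTRL#2, whose amount the labels do not state. Single silencing used 30 nM of siVPS4A#1, siVPS4A#2, siVPS4B#1 or siVPS4B#2 together with 30 nM of siCTRL#1. Combined silencing used 30 nM of each of 2 on-target duplexes with no siCTRL#1, namely siVPS4A#2 with siVPS4B#1 (siVPS4A+B#1) and siVPS4A#1 with siVPS4B#2 (siVPS4A+B#2). The amount of siCTRL#1 therefore changed along with the target, and its part in the differences below was not tested. Each condition had 4 libraries in the comparisons and siCTRL#1 had 5, and the replicate number of a library was its batch letter in the labels.

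MYC is a transcription factor that binds DNA as a heterodimer with MAX, at the E-box CACGTG, and promotes growth genes such as those of ribosome production and nucleotide synthesis. MXD3, MXD4, MXI1 and MNT also dimerize with MAX at such sites and bring in corepressors, so they oppose MYC. MGA is a large MAX partner that joins a Polycomb complex, and MLX is a MAX-like protein that pairs with the glucose-sensing Mondo factors and with some MXD proteins and MNT. In colorectal cells, MYC is a well-known target of the Wnt pathway.

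Because these proteins share the E-box, the promoters of their own genes were searched for it. RefSeq windows of GRCh38.p14, running from 250 bases before to 50 bases after a transcript start, were given for 7 of the 8 genes. The letters CACGTG, which read the same on both strands, were present for MXD4, MNT and MLX. The 7 genes had 12 windows between them. Counted by window and not by gene, the letters occurred in 7.26% of all 35116 windows of this length. The stretches of 60 bases are shown 5′ to 3′ on the strand of the gene with the motif in capitals. They come from chr4:2262300-2262359 (minus strand, motif 238 bases before the start), chr17:2401221-2401280 (minus strand, 193 bases before) and chr17:42567023-42567082 (plus strand, 50 bases before).
MXD4: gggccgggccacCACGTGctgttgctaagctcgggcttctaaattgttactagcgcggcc
MNT: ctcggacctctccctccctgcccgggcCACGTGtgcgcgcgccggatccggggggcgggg
MLX: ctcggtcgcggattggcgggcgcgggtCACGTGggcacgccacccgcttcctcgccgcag
These matches describe the letters of the windows, and no binding was measured in these libraries.

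Expression was measured with a targeted amplicon panel, which reads 1 short fragment per transcript. Values are in rpm, the reads of a gene per 1000000 reads on genes after scaling by TMM factors, and they are compared between conditions and never between genes, since amplicons differ in efficiency. The 37 libraries held between 5090666 and 11035293 reads. A count of 3 reads, the upper limit that a count of 0 allows, was at most 0.589 rpm. The silenced genes followed the labels, since VPS4A fell from 249 ± 55.0 rpm in NT (SD, n = 4) to 2.02% to 8.03% of it with the pairs and to 0.879% and 3.17% with siVPS4A#1 and siVPS4A#2, whereas VPS4B stood at 1.95% to 5.78% of its NT mean wherever it was targeted. The exception was the library labelled siVPS4A#1 replicate 2, with 669257 reads, 11.3 rpm of VPS4A (1.63 to 3.52 in the other libraries of this condition) and 1.62 rpm of VPS4B (21.4 to 32.1 in the others). It was left out, and the calls that it changes are given with it too. Of the epithelial markers, 6 of 8 were listed and summed to 4529 to 8578 rpm. Leukocyte markers were represented by LYZ alone (0 to 0.927 rpm) and fibroblast markers by COL1A1 alone (7.83 to 85.2 rpm), and 3 endothelial markers summed to 0.147 to 2.45 rpm. In such bulk libraries, fewer cells that express a gene and less of its RNA per cell cannot be told apart.

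Called genes had a fold of 1.5 or more together with an adjusted p below 0.05 (limma, Benjamini-Hochberg over all 12627 genes). With single silencing of VPS4A, 2 of the 8 network genes were called for siVPS4A#1 against siCTRL#1 (22.0% of all genes) and 4 against NT (25.0%). For siVPS4A#2 none was called against siCTRL#1 by limma, edgeR or DESeq2, where 0.0871% of all genes were called and 1 member had an unadjusted p under 0.05, and 2 were called against NT (8.15%). With VPS4B silencing, siVPS4B#1 gave 4 members against siCTRL#1 (12.9% of all genes) and 2 against NT (22.3%), and siVPS4B#2 gave 2 (7.57%) and 1 (15.5%). The pair siVPS4A+B#1 gave 2 against siCTRL#1 (22.1%) and 3 against NT (26.0%), and siVPS4A+B#2 gave 3 (28.7%) and 1 (28.8%). These shares of a set of 8 lie on both sides of the shares of all genes.

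Members also differed between the controls. Against NT, 3 of 8 were called for siCTRL#1 (9.05% of all genes) and 2 for siCTRL#2 (16.6%), and 2 were called between the 2 control duplexes (16.8%). Adding the second silencing gave 3 members for siVPS4A+B#1 against siVPS4A#2 (23.5%), 2 against siVPS4B#1 (9.88%), 1 for siVPS4A+B#2 against siVPS4A#1 (17.5%) and 2 against siVPS4B#2 (25.7%). The difference between a pair and the sum of its single effects, the interaction, was called for 1 member in the first pair (6.20% of all genes) and 2 in the second (18.3%). Duplexes against the same target differed in 2 members for VPS4A (22.2%), 1 for VPS4B (15.1%) and 1 between the pairs (17.4%).

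Calls shared by both duplexes and both controls, NT and siCTRL#1, were found for MYC and MXD3. MYC was lower in all 4 such comparisons of VPS4B silencing, as were 0.634% of all genes, and MXD3 was lower in all 4 of combined silencing, as were 4.16%. No member was higher in all 4 of VPS4B (0.483% of all genes) or of combined silencing (3.96%), and none met the rule for VPS4A in either direction (0.00792%). limma, edgeR and DESeq2 gave these same counts, and the counts of 0 stayed at 0 at an unadjusted p under 0.05.

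**Figure D1:**
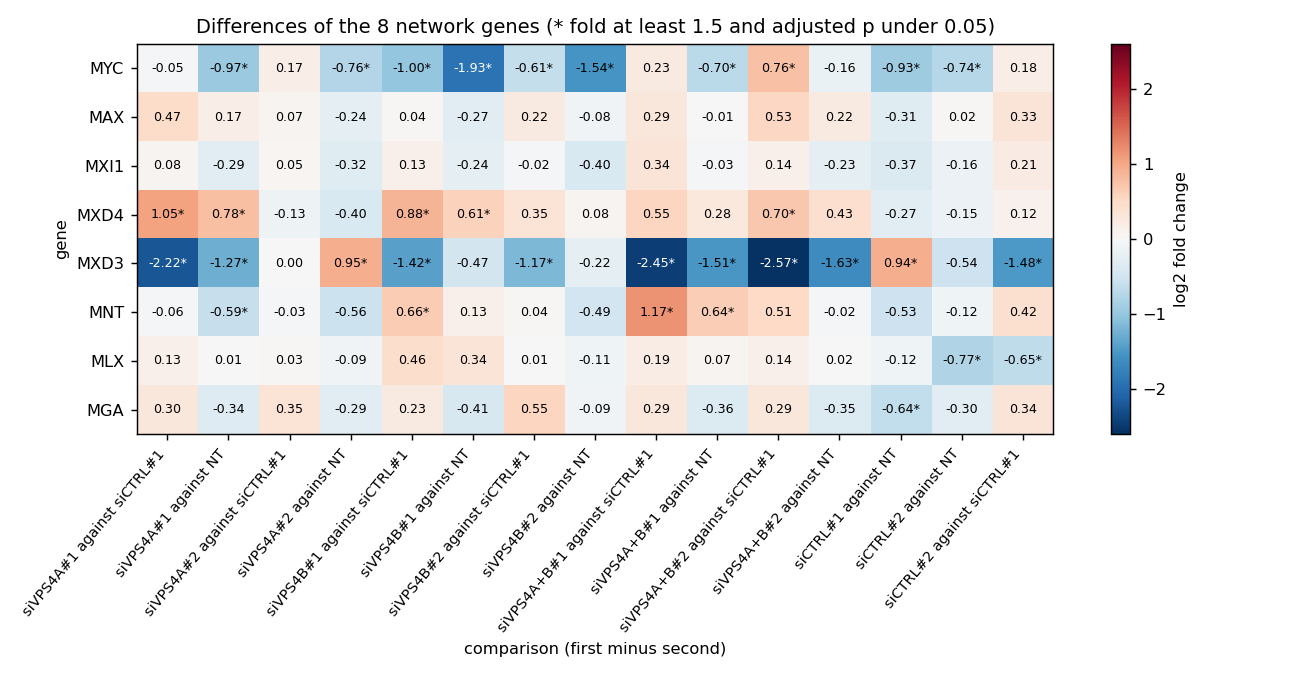
Log2 fold changes of the 8 genes (rows) in 15 comparisons (columns), coloured from lower (blue) to higher (red) with the value in each cell and an asterisk for called differences, in the comparisons with the controls and between the controls. MYC was lower in all 4 comparisons of VPS4B silencing with siCTRL#1 and NT, and MXD3 in all 4 of combined silencing.

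MYC (NM_002467) was highest in non-transfected cells and lowest after VPS4B silencing alone, and it stood higher again when VPS4A was silenced too. In NT, MYC stood at 730.1, 754, 494 and 707 rpm in replicates 1 to 4 (671 ± 119.7, SD, n = 4). In siCTRL#1 it was 435, 339.9, 234, 447 and 314 rpm in replicates 1 to 5 (354 ± 88.5, SD, n = 5), and in siCTRL#2 it was 407, 495, 281 and 430.4 rpm (403 ± 89.8, SD, n = 4). Every siCTRL#1 library lay below every NT library, so that siCTRL#1 held 52.7% of the NT mean. The log2 fold change was -0.93 (SE 0.145, adjusted p = 1.39e-05). For siCTRL#2 against NT it was -0.74 (SE 0.148, adjusted p = 0.000157), and the control duplexes did not differ beyond their spread (0.18, adjusted p = 0.371).

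After silencing of VPS4B with siVPS4B#1, MYC was 244, 194, 129.9 and 147 rpm (179 ± 51.5, SD, n = 4), which is 26.6% of the NT mean and 50.5% of the siCTRL#1 mean. With siVPS4B#2 it was 295, 218, 165 and 250.4 rpm (232 ± 54.6, SD, n = 4), or 34.6% and 65.5%. All 8 of these libraries lay below all NT libraries, while the ranges overlapped with siCTRL#1, whose replicate 3 was low. Within replicate numbers, MYC was lower than in siCTRL#1 in 4 of 4 for each duplex. Against siCTRL#1 the log2 fold change was -1.0 for siVPS4B#1 (SE 0.145, 95% interval -1.29 to -0.71, adjusted p = 1.7e-06) and -0.61 for siVPS4B#2 (SE 0.145, -0.91 to -0.32, adjusted p = 0.00343). Against NT it was -1.93 (adjusted p = 5.08e-13) and -1.54 (adjusted p = 2.55e-10), and against siCTRL#2 it was -1.18 (adjusted p = 3.36e-08) and -0.80 (adjusted p = 4.35e-05). The smallest of these, siVPS4B#2 against siCTRL#1, was no longer called without the replicate block (-0.60, adjusted p = 0.0566), without replicate number 4 (-0.57), without siCTRL#1 replicate 4 (-0.51) or without siVPS4B#2 replicate 2 (-0.57).

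With VPS4A silencing, MYC did not differ from siCTRL#1 beyond the spread. In siVPS4A#1 it was 376, 334, 277 and 338 rpm in replicates 1, 3, 4 and 5 (331 ± 41.0, SD, n = 4), and in siVPS4A#2 it was 575, 414, 260.1 and 379.9 rpm (407 ± 129.8, SD, n = 4). The log2 fold changes against siCTRL#1 were -0.05 (95% interval -0.33 to 0.24, adjusted p = 0.828) and 0.17 (-0.12 to 0.46, adjusted p = 0.934), and both conditions lay below NT, as the control duplex did (-0.97, adjusted p = 2.83e-06, and -0.76, adjusted p = 0.000466). The library labelled siVPS4A#1 replicate 2 held 450 rpm of MYC.

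**Figure D2:**
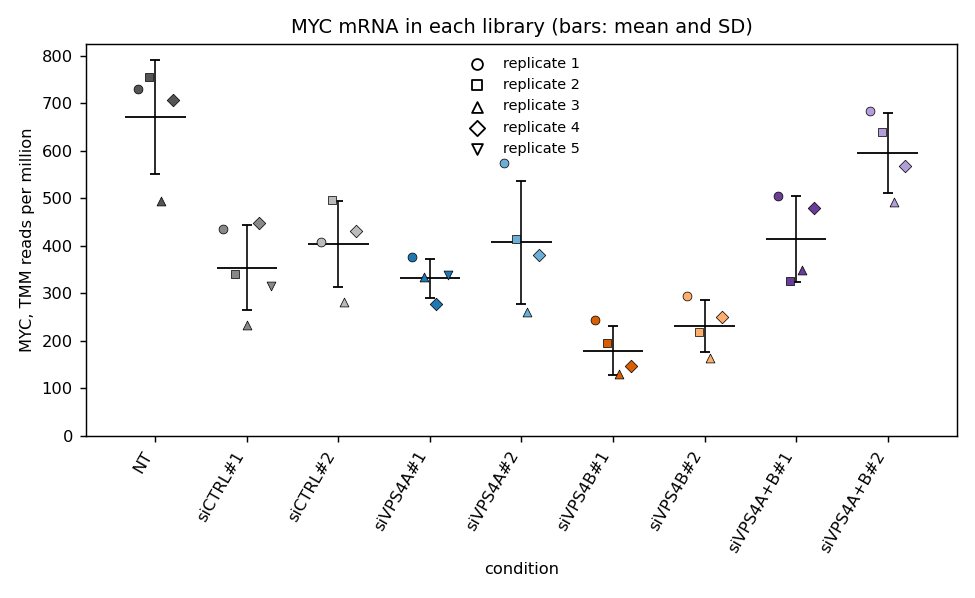
MYC in rpm (vertical axis, from 0) in each of the 37 libraries (points), by condition (horizontal axis), with the mean and SD. NT libraries sit between 494 and 754 rpm, siVPS4B#1 libraries between 129.9 and 244 rpm, and siVPS4A+B#2 libraries between 492 and 683 rpm.

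In the pairs, the mean of MYC lay above that of siCTRL#1. With siVPS4A+B#1 it was 504, 326, 349 and 479 rpm (415 ± 89.9, SD, n = 4, 61.7% of NT), whereas siVPS4A+B#2 libraries held 683, 640.0, 492 and 568 rpm (596 ± 84.1, SD, n = 4, 88.7% of NT). All siVPS4A+B#2 libraries were above all siCTRL#1 libraries (log2 fold change 0.76, SE 0.145, adjusted p = 3.53e-05), whereas siVPS4A+B#1 overlapped with them (0.23, adjusted p = 0.227). Against NT, MYC was lower for siVPS4A+B#1 (-0.70, adjusted p = 0.000191, and -0.56 and no longer called without siVPS4A+B#1 replicate 2), and for siVPS4A+B#2 it was -0.16 (95% interval -0.46 to 0.14, adjusted p = 0.387). The 2 pairs differed from each other by -0.54 (adjusted p = 0.0052), below a fold of 1.5 (-0.61 and -0.62, and called, without siVPS4A+B#1 replicate 3 or 4).

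The same VPS4B duplex thus went with different MYC levels depending on whether VPS4A was silenced beside it. MYC was 2.34-fold higher in siVPS4A+B#1 than in siVPS4B#1 (log2 fold change 1.23, adjusted p = 5.28e-08) and 2.6-fold higher in siVPS4A+B#2 than in siVPS4B#2 (1.38, adjusted p = 1.02e-09). Relative to the VPS4A duplex of the pair, it was higher for siVPS4A+B#2 (0.81, adjusted p = 0.000109) and 0.06 apart for siVPS4A+B#1 (adjusted p = 0.803). Each pair lay above the sum of its single effects against siCTRL#1, by 1.06 for the first pair (SE 0.207, 95% interval 0.64 to 1.47, adjusted p = 0.000736) and by 1.42 for the second (SE 0.205, 1.01 to 1.84, adjusted p = 2.23e-06). With the library labelled siVPS4A#1 replicate 2 kept, the second value was 1.36. These contrasts share the siCTRL#1 libraries, and the single conditions held 30 nM of siCTRL#1 that the pairs did not, whose part was not tested.

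**Figure D3:**
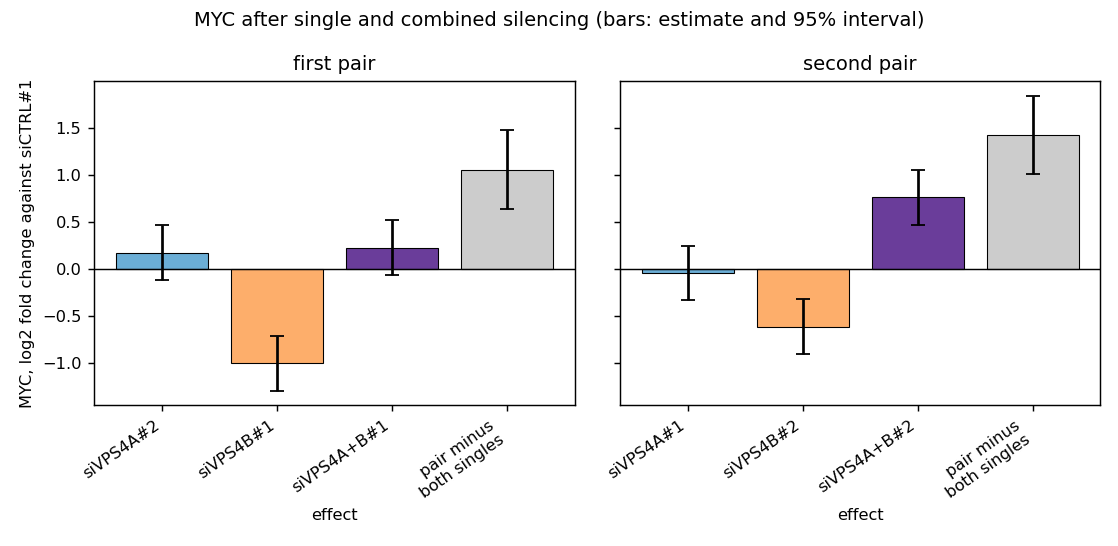
Log2 fold change of MYC against siCTRL#1 (vertical axis) for the VPS4A duplex, the VPS4B duplex, their pair and the pair minus both single effects (bars, with 95% intervals), in the first and the second pair. The VPS4B duplex alone lies below 0 in both, and the pair minus both singles stands at 1.06 and 1.42.

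In order of mean level, MYC ran from NT through siVPS4A+B#2, siVPS4A+B#1, siVPS4A#2, siCTRL#2, siCTRL#1, siVPS4A#1 and siVPS4B#2 to siVPS4B#1, and the libraries of every pair of neighbours in this order overlapped. The genes most like MYC over the 9 condition means of log2(rpm + 1), among 8276 genes with a mean of at least 10 rpm, were EIF3M (Pearson r = 0.939), EIF3D (0.934), PUM2 (0.931), PPRC1 (0.928) and CCNB1IP1 (0.927). EIF3M and EIF3D encode subunits of the translation initiation factor eIF3. Their condition means spanned 0.50 to 0.84 on the log2 scale, against 1.93 for MYC. The other network genes followed MYC less closely, with r from -0.26 for MXD4 and MLX to 0.56 for MXI1, and MXD3 was at -0.13. These 9 points share their libraries and their depth, and the correlations are given as a description.

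MXD3 (NM_031300), a MAX partner that represses E-box genes and is best known from dividing cells, had the widest range of condition means, by fold, of the repressors. In NT it was 7.83, 16.8, 17.8 and 15.9 rpm (14.6 ± 4.57, SD, n = 4), in siCTRL#1 28.3, 25.7, 23.9, 33.5 and 28.7 rpm (28.0 ± 3.62, SD, n = 5) and in siCTRL#2 11.2, 9.09, 5.99 and 11.95 rpm (9.57 ± 2.68, SD, n = 4). All siCTRL#1 libraries lay above all libraries of the other 2 controls. The log2 fold change of siCTRL#1 was 0.94 against NT (adjusted p = 0.0268), and that of siCTRL#2 was -1.48 against siCTRL#1 (adjusted p = 0.000212) and -0.54 against NT (adjusted p = 0.206), the last being called at -0.96 without NT replicate 1 (adjusted p = 0.0167). The difference of siCTRL#1 from NT was 0.52 without NT replicate 1, the lowest NT library (adjusted p = 0.276), and it also lost its call without siCTRL#1 replicate 3 (0.90) or replicate 4 (0.87).

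In the pairs MXD3 was low in every library. With siVPS4A+B#1 it was 11.2, 5.48, 2.03 and 2.20 rpm (5.23 ± 4.30, SD, n = 4), while siVPS4A+B#2 libraries held 7.61, 3.84, 1.28 and 4.81 rpm (4.39 ± 2.62, SD, n = 4). None of these libraries reached the lowest siCTRL#1 library, and the fold change was 5.47 for the first pair (log2 -2.45, adjusted p = 2.72e-08) and 5.93 for the second (-2.57, adjusted p = 5.89e-09). Against NT, the log2 fold changes were -1.51 (adjusted p = 0.000144) and -1.63 (adjusted p = 4.42e-05), and the first pair overlapped with NT through replicate 1 of both. MXD3 had as few as 8 reads in a library, and on this scale with 1 rpm added a fold change of a low gene is understated.

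The single duplexes against VPS4A moved apart in MXD3. With siVPS4A#1 it was 9.49, 3.01, 4.76 and 5.13 rpm (5.60 ± 2.76, SD, n = 4), and with siVPS4A#2 it was 23.7, 30.5, 23.1 and 36.0 rpm (28.3 ± 6.14, SD, n = 4). All siVPS4A#1 libraries lay below all siVPS4A#2 libraries (-2.22, adjusted p = 7.29e-07). MXD3 with siVPS4A#2 did not differ from siCTRL#1 beyond the spread (0.00, 95% interval -0.61 to 0.62, adjusted p = 0.999). It was above NT (0.95, adjusted p = 0.0349). That last difference was 0.53 without NT replicate 1 (adjusted p = 0.297) and was lost without siVPS4A#2 replicate 2 (0.90), 3 (0.92) or 4 (0.82). siVPS4A#1 was below siCTRL#1 by a log2 fold change of -2.22 (adjusted p = 1.07e-07) and below NT by -1.27 (adjusted p = 0.00187). The library labelled siVPS4A#1 replicate 2 had 0 reads of MXD3, and with it these values were -2.73 against siCTRL#1, -1.86 against NT and -2.80 against siVPS4A#2, all called.

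With VPS4B silencing, MXD3 was 16.5, 7.96, 12.1 and 5.56 rpm for siVPS4B#1 (10.5 ± 4.80, SD, n = 4) and 13.6, 9.25, 10.1 and 15.3 rpm for siVPS4B#2 (12.05 ± 2.87, SD, n = 4). Both lay below all siCTRL#1 libraries (-1.42, adjusted p = 0.000521, and -1.17, adjusted p = 0.00807) and did not differ from NT beyond the spread (-0.47, adjusted p = 0.243, and -0.22, adjusted p = 0.649). Neither mean lay below that of the other non-targeting duplex, siCTRL#2 (9.57 rpm), and the libraries overlapped with it. Without NT replicate 1, siVPS4B#1 was called below NT too (-0.89, adjusted p = 0.0210). The pairs were lower still than their VPS4B duplex, by -1.03 for the first (adjusted p = 0.0181) and -1.40 for the second (adjusted p = 0.000376). The first of these lost its call without siVPS4A+B#1 replicate 3 (-0.86) or 4 (-0.75) or without siVPS4B#1 replicate 1 (-0.90) or 3 (-0.80). Relative to the VPS4A duplex of the pair, MXD3 was lower for siVPS4A+B#1 (-2.45, called). For siVPS4A+B#2 it was not called, at 4.39 rpm beside 5.60 rpm with siVPS4A#1 alone. With the library labelled siVPS4A#1 replicate 2 kept, that difference was 0.25 (adjusted p = 0.729). The interactions of MXD3 were not called (-1.04, adjusted p = 0.167, and 0.82, adjusted p = 0.187), although the first was called without siVPS4A+B#1 replicate 1 (-1.37, adjusted p = 0.0407) and the second was 1.35 with the library labelled siVPS4A#1 replicate 2 kept (adjusted p = 0.123).

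**Figure D4:**
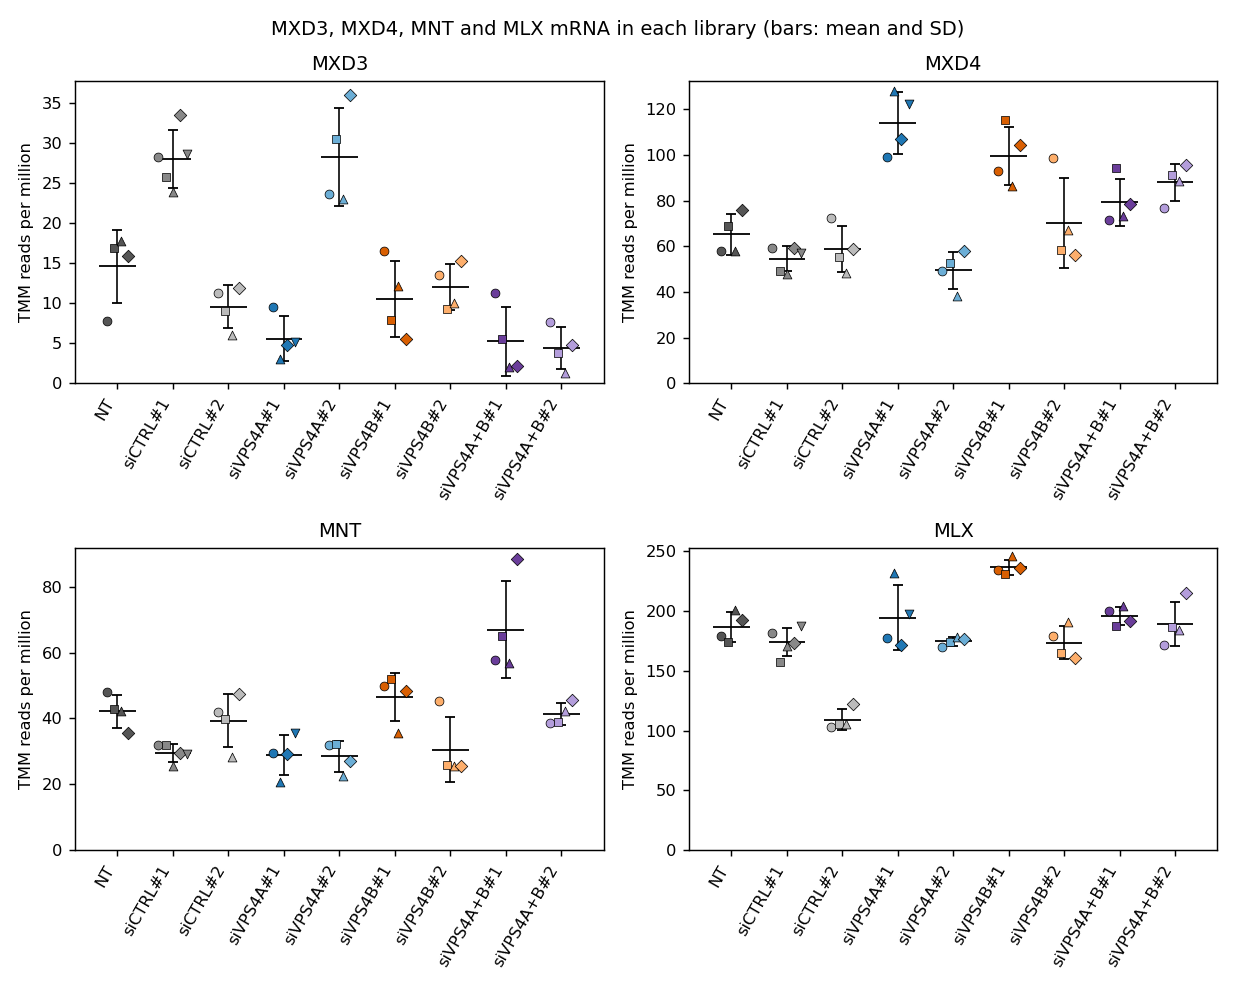
Levels of MXD3, MXD4, MNT and MLX in rpm (vertical axes, from 0) in each library (points), by condition, with the mean as a line and the SD as an error bar. Circles are replicate 1, squares 2, upward triangles 3, diamonds 4 and downward triangles 5. MXD3 reaches 36.0 rpm with siVPS4A#2 and stays at or below 11.2 rpm with both pairs.

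MXD4 (NM_006454), another MAX-binding repressor and known from differentiating cells, was higher than in siCTRL#1 with siVPS4A#1, siVPS4B#1 and siVPS4A+B#2. In siCTRL#1 it was 59.4, 49.1, 48.1, 59.4 and 57.1 rpm (54.6 ± 5.60, SD, n = 5) and in NT 58.0, 68.9, 58.0 and 76.0 rpm (65.2 ± 8.82, SD, n = 4). With siVPS4A#1 it was 99.0, 128, 107 and 122 rpm (114 ± 13.4, SD, n = 4), and with siVPS4B#1 it was 93.2, 115, 86.4 and 104 rpm (99.8 ± 12.7, SD, n = 4). Every library of these 2 conditions lay above every library of both controls. The log2 fold changes were 1.05 (adjusted p = 1.19e-07) and 0.88 (adjusted p = 1.6e-05) against siCTRL#1, and 0.78 (adjusted p = 9.5e-05) and 0.61 (adjusted p = 0.00125) against NT. The last lost its call without NT replicate 1 (0.53) or siVPS4B#1 replicate 2 (0.54), and siVPS4A#1 was at 0.91 against siCTRL#1 and 0.61 against NT, still called, with the library labelled siVPS4A#1 replicate 2 kept.

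The other duplexes left MXD4 nearer to the controls. It was 49.1, 52.7, 38.4 and 57.8 rpm with siVPS4A#2 (49.5 ± 8.23, SD, n = 4), below all siVPS4A#1 libraries (log2 fold change of siVPS4A#1 against it 1.18, adjusted p = 8.6e-08). With siVPS4B#2 it was 98.8, 58.6, 67.2 and 56.3 rpm (70.2 ± 19.6, SD, n = 4), where replicate 1 stood above the rest, and the difference from siCTRL#1 was 0.35 (adjusted p = 0.104). The pairs lay between, at 79.3 ± 10.3 rpm for siVPS4A+B#1 and 88.2 ± 8.10 rpm for siVPS4A+B#2 (SD, n = 4 each), with log2 fold changes of 0.55 (adjusted p = 0.0026, a fold of 1.46) and 0.70 (adjusted p = 0.000115) against siCTRL#1. The latter was 0.57, under a fold of 1.5, when libraries were scaled by their total reads. siVPS4A+B#1 was above siVPS4A#2 by 0.68 (adjusted p = 0.000358), a call lost without siVPS4A#2 replicate 3 (0.58). The second pair lay below the sum of its single effects by -0.70 (adjusted p = 0.0135), a call lost without siVPS4A#1 replicate 3 (-0.57) or siVPS4B#2 replicate 1 (-0.53) and with the library labelled siVPS4A#1 replicate 2 kept (-0.53, adjusted p = 0.133).

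MNT (NM_020310), the MAX partner that represses MYC targets in most cell types, was highest with siVPS4A+B#1. There it was 57.7, 65.0, 56.8 and 88.5 rpm (67.0 ± 14.8, SD, n = 4), against 32.0, 32.0, 25.4, 29.4 and 29.2 rpm in siCTRL#1 (29.6 ± 2.70, SD, n = 5) and 48.0, 42.9, 42.3 and 35.7 rpm in NT (42.2 ± 5.05, SD, n = 4). All siVPS4A+B#1 libraries lay above all libraries of both controls, by a log2 fold change of 1.17 against siCTRL#1 (adjusted p = 5.8e-08) and 0.64 against NT (adjusted p = 0.000947). The call against NT was lost without NT replicate 4 (0.53) or siVPS4A+B#1 replicate 4 (0.50). MNT was also higher than in siCTRL#1 with siVPS4B#1, the VPS4B duplex of this pair, at 49.7, 51.9, 35.7 and 48.5 rpm (46.4 ± 7.29, SD, n = 4), with a log2 fold change of 0.66 (adjusted p = 0.00102).

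Duplexes against the same targets differed in MNT. With siVPS4B#2 it was 45.4, 25.8, 25.4 and 25.4 rpm (30.5 ± 9.92, SD, n = 4), and siVPS4A+B#2 libraries held 38.6, 39.1, 42.1 and 45.7 rpm (41.4 ± 3.28, SD, n = 4). siVPS4B#1 was above siVPS4B#2 by 0.62 (adjusted p = 0.00248), and siVPS4A+B#1 above siVPS4A+B#2 by 0.66 (adjusted p = 0.00106). The first call was lost without siVPS4B#1 replicate 2 (0.57), siVPS4B#2 replicate 2 (0.54) or siVPS4B#2 replicate 4 (0.52), and the second without siVPS4A+B#1 replicate 4 (0.51) or siVPS4A+B#2 replicate 1 (0.57). Both VPS4A duplexes had MNT levels near siCTRL#1, at 28.8 ± 6.10 rpm for siVPS4A#1 and 28.5 ± 4.61 rpm for siVPS4A#2 (SD, n = 4 each). siVPS4A+B#1 was above siVPS4A#2 by 1.20 (adjusted p = 5.9e-08). siVPS4A#1 was below NT by a log2 fold change of -0.59 (adjusted p = 0.00341), at the edge of the fold threshold, and this was -0.23 (adjusted p = 0.458) with the library labelled siVPS4A#1 replicate 2 kept, which held 87.4 rpm of MNT.

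MLX (NM_170607) stood apart in siCTRL#2. It was 103, 106, 106 and 122 rpm there (109 ± 8.73, SD, n = 4), below every library of every other condition, with log2 fold changes of -0.77 against NT (adjusted p = 1.89e-07) and -0.65 against siCTRL#1 (adjusted p = 2.69e-06). MLX was highest with siVPS4B#1, at 235, 231, 246 and 236 rpm (237 ± 6.39, SD, n = 4), above all siCTRL#1 libraries by 0.46 (adjusted p = 0.0006), a fold of 1.38 and under the threshold. The other conditions had means between 174 and 196 rpm.

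MAX itself (NM_002382), the shared partner, had condition means from 23.8 to 34.3 rpm and was called in none of the 24 comparisons by limma, edgeR or DESeq2, although 6 had an unadjusted p under 0.05. The 2 largest differences from siCTRL#1, 0.53 for siVPS4A+B#2 (adjusted p = 0.0029) and 0.47 for siVPS4A#1 (adjusted p = 0.0082), were under a fold of 1.5. The first was called without siVPS4A+B#2 replicate 1 (0.68) or siCTRL#1 replicate 2 (0.63). MXI1 (NM_130439), a repressor of the MXD group, had condition means from 121 to 160.4 rpm and was likewise called in none by the 3 tools, with 3 at an unadjusted p under 0.05. MGA (NM_001164273) was lower in siCTRL#1 (25.4 rpm) than in NT (38.96 rpm), by a log2 fold change of -0.64 (adjusted p = 0.00465), a call lost without NT replicate 1 (-0.53) or siCTRL#1 replicate 1 (-0.50). In GRCh37, the build of the deposited table, MXD4 lies at chr4:2249159-2263836, MXD3 at chr5:176728462-176739758, MXI1 at chr10:111967363-112047123, MAX at chr14:65472892-65569413, MGA at chr15:41913332-42065279, MNT at chr17:2287367-2304398 and MLX at chr17:40719090-40725257.

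Of the other MYC, MXD and Mondo genes in the table, MYCL moved with both pairs, and MXD1 with siVPS4B#1 and siVPS4A+B#1 but not with siVPS4B#2 or siVPS4A+B#2. MYCL, a MYC paralog, was lower in all 4 comparisons of combined silencing, by -1.10 and -0.94 for siVPS4A+B#1 and by -0.96 and -0.80 for siVPS4A+B#2 against siCTRL#1 and NT, and it was also lower with siVPS4B#1 (-0.84, adjusted p = 0.0020, and -0.68, adjusted p = 0.0095). MXD1, a MAX-binding repressor induced in differentiating cells, was 4.59 rpm on average in siCTRL#1, 10.6 ± 2.02 rpm with siVPS4B#1 and 19.4 ± 6.53 rpm with siVPS4A+B#1 (SD, n = 4 each), and 4.26 and 4.14 rpm with siVPS4B#2 and siVPS4A+B#2. MXD1 was thus higher than in siCTRL#1 in the 2 conditions that held siVPS4B#1 (log2 fold change 1.15 and 1.93), and siVPS4B#1 was above siVPS4B#2 by 1.13. MNT was also called above siCTRL#1 in these 2 conditions, but with siVPS4B#1 it stood at 110% of its NT mean. In siVPS4A+B#2, which lacks that duplex, MNT was at 140% of its siCTRL#1 mean, which was not called, and at 98.0% of its NT mean. Against siCTRL#1 it was called (0.61, adjusted p = 0.00253) when siVPS4A+B#2 replicate 1 was left out. MXD1 was higher in siCTRL#2 than in NT too (0.84). As for MLX itself, siCTRL#2 was below NT in MLXIP (-1.37) and MLXIPL (-1.96), the Mondo partners of MLX, whereas siCTRL#1 held 101.6% and 91.5% of their NT means. MLXIP was higher with siVPS4A+B#2 than in siCTRL#1 (0.72) and NT (0.70), and MLXIPL was lower with siVPS4A+B#1 than in NT (-0.60). ARRDC4, a target of Mondo and MLX factors that is named after its values were seen, was below NT in every transfected condition, by -1.28 in siCTRL#1 and -1.07 in siCTRL#2, but its NT libraries ran from 3.60 to 15.8 rpm.

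Genes that MYC is known to activate were counted over a list of 45, which was drawn up from textbook knowledge and with earlier results of these data known. Against NT, 25 of 45 fell with siVPS4B#1 (55.6%, with 11.6% of all genes lower), and the median log2 fold change was -0.63 over the list and -0.00 over all genes. With siVPS4B#2, siVPS4A+B#1 and siVPS4A+B#2, 15, 19 and 11 of them were below NT (7.90%, 13.3% and 15.7% of all genes lower). With siVPS4A#1 and siVPS4A#2, 18 and 6 of them were below NT (13.4% and 3.83% of all genes lower). The same list had 9 of 45 lower in siCTRL#1 against NT (20%, with 4.21% of all genes lower). Against siCTRL#1, 9 fell with siVPS4B#1 (20%, with 7.33% of all genes lower, list median -0.30), whereas 1 fell with siVPS4B#2 (4.56% of all genes lower). Against the same control, 10 of the 45 fell and 2 rose with siVPS4A#1 (12.5% and 9.57% of all genes), where MYC was not called. With siVPS4A+B#2 against siCTRL#1, 6 rose and 7 fell (12.8% and 15.9% of all genes), and with siVPS4A+B#1, 3 rose and 5 fell (10.6% and 11.5%). In all 4 comparisons of combined silencing, TFAM, a mitochondrial transcription factor, and MCM4, a subunit of the replicative helicase, fell (mean log2 fold change -1.15 for each), which is 2 of 45 beside the 4.16% of all genes that did so. Over the 4 comparisons of VPS4A silencing, MCM4 ran from -1.61 to 0.30 and TFAM from -0.74 to -0.12. BOP1, which acts in ribosome assembly, fell in all 4 of VPS4B silencing (-0.82), as did 0.634% of all genes, and is named after its values were seen. In the second pair, 8 of the 45 lay above the sum of the single effects (17.8%, with 9.64% of all genes), and in the first pair 1 did (2.22%, with 3.82% of all genes).

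Of 8 genes that MYC is known to repress, 5 rose with siVPS4A+B#1 against siCTRL#1 and 5 against NT, and 4 and 6 rose with siVPS4A+B#2 (10.6%, 12.6%, 12.8% and 13.2% of all genes higher). The medians of the list were 1.01, 1.38, 0.55 and 0.79, and those of all genes -0.02, -0.04, -0.02 and -0.03. The 4 called in all 4 comparisons of combined silencing were CDKN2B (mean log2 fold change 2.46), KLF6 (1.96), CDKN1A (1.84) and NDRG1 (0.91). CDKN2B and CDKN1A encode inhibitors of cyclin-dependent kinases, and all 4 also respond to other pathways. CDKN1A, alone of the list, rose in all 4 comparisons of VPS4B silencing too (1.11). There CDKN2B ran from -0.01 to 1.36, KLF6 from -0.02 to 0.34 and NDRG1 from -0.30 to 0.46. MYC, lowest with VPS4B silencing alone, was not called below siCTRL#1 in either pair. It was called above siCTRL#1 in siVPS4A+B#2 (0.76) and below NT in siVPS4A+B#1 (-0.70). Over the 4 comparisons of VPS4A silencing, CDKN1A ran from -0.43 to 2.65, where combined silencing gave 1.39 to 2.29. CDKN2B ran from -0.24 to 1.34 with VPS4A silencing, KLF6 from -0.06 to 0.07 and NDRG1 from -0.31 to 0.25. Against NT, 2 of the 8 rose in siCTRL#1 as well (4.84% of all genes higher).

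Among genes that act on or with MYC and its partners, few met the rule of all 4 comparisons. Of 12 genes of MYC turnover, AURKA, a mitotic kinase that stabilizes MYC proteins, fell in all 4 comparisons of combined silencing (-0.97). Of 7 corepressor genes that the MXD proteins and MNT recruit, HDAC1 did so (-0.90), and of 9 genes of the MGA complex, TFDP1 fell in all 4 of VPS4B silencing (-1.23) and is named after its values were seen. Of all genes, 4.16% were lower in all 4 of combined silencing and 0.634% in all 4 of VPS4B silencing. Over the 4 comparisons of VPS4A silencing, AURKA ran from -1.50 to 0.53 and HDAC1 from -0.44 to 0.16. None of 12 cofactors of MYC was called in all 4 comparisons of any target by limma, edgeR or DESeq2, also at an unadjusted p under 0.05.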

How the data were processed

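RNA of HCT116 cells was profiled by the authors with the Ion AmpliSeq Transcriptome panel, aligned to hg19 amplicon transcripts and counted with HTSeq 0.6.0, and tested with DESeq2 1.18.1 per the submitters' processing notes. The deposited signal of a gene was its share of the reads of a library. Whole reads were recovered from the smallest step of these shares. Of the values, 50.5% held enough digits to tell, and 100% of these were whole within 0.1 reads. Reads were scaled by TMM factors (0.8812 to 1.099, edgeR 4.0.16) and log2(rpm + 1) was fitted with limma 3.58.1 (intensity trend, R 4.3.3) over 9 conditions and 37 libraries with the replicate number as a block, as in the study's batch term. All 12627 genes entered, and p-values were adjusted by Benjamini-Hochberg. Of the genes, 12474 had a symbol. The 37 libraries held a median of 7561496 reads, and intervals and limits cover counting error or library spread only.

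The labels give the batch of each replicate number. Over 8202 genes, deviations from condition means correlated at 0.189 on average within a number (137 pairs) and at -0.0548 between numbers (471 pairs). The study describes independent experiments. Gene positions came from the GRCh37 annotation, and promoters from RefSeq (GRCh38.p14). Members and lists were chosen with earlier results of these data known. Named outside the members were VPS4A and VPS4B, the other MYC, MXD and Mondo genes, at most 4 genes of each list called in all 4 comparisons of combined silencing, and the 5 genes most like MYC. ARRDC4, BOP1 and TFDP1 were named outside this rule, after their values were seen. TXNIP, CCND2, USP36 and MYCN were not analysed here. Alternatives were no block, DESeq2 size factors, total reads, a pseudocount of 0.1, a filter at 10 reads on average, edgeR and DESeq2 1.42.0 on the reads, only the conditions compared, the left-out library kept, siCTRL#2 added, and leaving out each replicate number or, added after seeing the data, each library. The fit was tested on simulated data.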

Additional observations from a re-analysis of the deposited data

Results flagged for a closer look

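MYC differed between silencing of VPS4B alone and together with VPS4A, since each pair departed from the sum of its single effects on the log2 scale, by 1.06 for the first pair and 1.42 for the second (adjusted p = 0.000736 and 2.23e-06, limma). Over all alternatives, leaving out each library included, the values stayed between 0.80 and 1.25 for the first pair and between 1.28 and 1.57 for the second. MXD4 departed the other way in the second pair, by -0.70 (adjusted p = 0.0135), which was not called in 5 of 51 alternatives.

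In a group of 4 libraries, MNT of siVPS4B#2 replicate 1 was highest at 45.4 rpm, with the others at 25.4 to 25.8 rpm, and MLX of siCTRL#2 replicate 4 was highest at 122 rpm, with the others at 103 to 106 rpm. MXD4 was also highest in siVPS4B#2 replicate 1 (98.8 rpm). These were 2 of 72 groups examined, and chance marks about 1 in 20.

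The library labelled siVPS4A#1 replicate 2, outside the comparisons, held 87.4 rpm of MNT, above the highest library of the controls (48.0 rpm). That value lay within the range of siVPS4A+B#1 (56.8 to 88.5 rpm). Its MYC, MAX, MXI1, MGA and VPS4A also lay within the ranges of that condition, and its MXD4 and MLX lay outside them. MXD3 had 0 reads there and VPS4B 1 read. In this library 3 reads are 4.48 rpm, so these 2 counts cannot be told apart from the ranges of siVPS4A+B#1. The cause was not tested. This library was the shallowest, with 669257 reads.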

How the results depend on the processing

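The 48 called differences of the members were recomputed in 51 alternatives each, and 33 kept their call in all. None changed direction. The other tests, scalings, filters and sets of libraries gave 432 values, of which 413 kept the call, leaving out a replicate number gave 218 of 240, and leaving out a library gave 1733 of 1776. The members called in all 4 comparisons of a target fell from 2 to 1 without the replicate block, where MYC lost its call with siVPS4B#2 against siCTRL#1, and leaving out a replicate or library gave 1 to 2. The call of MXD3 in combined silencing was kept throughout. Without the block, MNT with siVPS4A#1 against NT (-0.55, adjusted p = 0.0133) and MXD3 with siVPS4A#2 against NT (0.95, adjusted p = 0.0740) were lost too. Scaling by total reads lost MNT for siVPS4A#1 (-0.48) and siVPS4A+B#1 (0.53) against NT, MXD4 for siVPS4A+B#2 against siCTRL#1 (0.57) and siVPS4A+B#1 against siVPS4A#2 (0.53), and MGA for siCTRL#1 against NT (-0.57). DESeq2 lost MXD3 with siVPS4A#2 (0.90) and siCTRL#1 (0.87) against NT. With the library labelled siVPS4A#1 replicate 2 kept, MXD3 lost its calls for siCTRL#1 against NT (0.88, adjusted p = 0.172), siVPS4A#2 against NT (0.94, adjusted p = 0.164), siVPS4B#2 against siCTRL#1 (-1.10, adjusted p = 0.0904) and siVPS4A+B#1 against siVPS4B#1 (-1.02, adjusted p = 0.125). MNT with siVPS4A#1 against NT kept its call in 29 of 51 alternatives, with values of -0.71 to -0.46 on leaving out a replicate or a library. MXD4 for siVPS4A+B#1 against siCTRL#1 gained its call with the library labelled siVPS4A#1 replicate 2 kept (0.59, adjusted p = 0.00697). For these changes the cause was not tested. Another 19 differences were called only in an alternative. Depth limits MXD3 most, at 8 to 303 reads a library.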
